A study of Mus musculus with 12 samples.

Results

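The genes described here encode the protein subunits of the mitochondrial respiratory chain and a set of assembly factors that share their symbol prefixes, in RNA of mouse livers measured on 12 Affymetrix GeneChip whole-transcript arrays. Members were all genes whose symbol began with Ndufa, Ndufb, Ndufc, Ndufs, Ndufv, Sdha to Sdhd, Uqcr, Atp5 or Cox4 to Cox8, among probe sets annotated with 1 symbol. The rule gave 93 of 19938 genes, of which 82 are subunits and 11 are assembly factors (Ndufaf1 to Ndufaf7 and Sdhaf1 to Sdhaf4). The subunits comprised 34 genes of complex I, 4 of complex II, 8 of complex III, 19 of complex IV and 17 of complex V. Of several probe sets for a gene, the brightest over the 12 arrays was taken, and no measured difference entered the choice.

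The 12 livers formed 3 groups of 4, all from male mice. The labels give the background strain as C57Bl/6 and the source mice as C57Bl6/J. The S534A LPS livers came from mice homozygous for a knock-in allele of p65 (Rela), a subunit of the transcription factor NF-kB, in which a serine is replaced by alanine. Gene targeting used PTL1 embryonic stem cells, the line was backcrossed to C57Bl6/J, and the labels restrict the allele to no cell type. These mice received lipopolysaccharide (LPS), the endotoxin of the bacterial outer membrane, at 1 µg/kg. The WT LPS livers came from wild-type mice given the same dose, and the WT untreated livers from wild-type mice given none. The sources used here give neither age nor the time between LPS and collection. The labels count livers without saying that each came from a separate animal, so p-values reflect only how much these samples varied. With no untreated S534A livers analysed here, a difference between genotypes that preceded LPS and one in the response cannot be told apart. The untreated arrays were titled in another scheme than the LPS arrays, and if they were run apart, batch and treatment cannot be told apart. The probe sets do not read the altered codon and do not check the genotype labels.

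The respiratory chain carries electrons from NADH through complex I, or from succinate through complex II, by way of ubiquinone to complex III, cytochrome c and complex IV, where oxygen is reduced to water. Complexes I, III and IV pump protons across the inner mitochondrial membrane, and complex V, the ATP synthase, uses the gradient to make ATP. Most subunits are encoded in the nucleus and a small set in mitochondrial DNA, and hepatocytes are rich in mitochondria. In liver, the chain supports gluconeogenesis, urea synthesis and fatty acid oxidation.

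The deposited values are log2 signals. Signals of different probe sets give no order of transcript abundance, and below they describe only how bright a probe set was. Group differences are within the same probe set. The 93 genes had mean log2 signals of 4.78 to 13.22 with a median of 10.73, and the median over all genes was 6.73. A mean of 7 hepatocyte marker genes ran from 13.53 to 13.61 over the 12 arrays, which checks the labelled tissue. The mean of 12 genes of the exocrine pancreas was 9.44 on S534A LPS replicate 3, 8.53 on WT LPS replicate 2 and 6.85 on WT LPS replicate 3, against at most 6.38 on the other 9 arrays. These 3 arrays carry transcripts of another organ, and the counts over the 93 genes and by complex are also given without them. A list of clock genes averaged 9.40 and 9.46 on WT untreated replicates 2 and 4, against 8.30 and 7.96 on replicates 1 and 3 and 8.38 to 8.74 on the LPS arrays. Of 13 neutrophil markers, 11 rose in WT LPS against WT untreated livers, where 9.34% of all genes rose. The mean of the 13 was 7.47 to 7.74 on S534A LPS arrays, 7.11 to 7.39 on WT LPS arrays and 5.73 to 5.96 on WT untreated arrays. The part of pancreas, clock phase and cell composition in the differences below was not tested. In bulk tissue, fewer cells of a type and less RNA per cell cannot be told apart.

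After LPS in WT livers, the respiratory chain genes that passed the test all fell, mostly by small amounts. Of the 93 genes, 28 (30.1%) were lower in WT LPS than in WT untreated livers at an adjusted p under 0.05, and 0 were higher, by limma with Benjamini-Hochberg adjustment over all 19938 genes. Over all genes, 15.6% were lower and 9.34% higher at the same adjusted threshold. At an unadjusted p under 0.05 the counts were 42 lower and 0 higher. At that threshold 4145 of all 19938 genes were lower and 2929 higher. The median log2 difference of the 93 genes was -0.14, and the differences ran from -0.82 to 0.21. The median over all genes was 0.02. For 33 of the 93 genes all 4 WT LPS arrays lay below all 4 WT untreated arrays, where 14.9% of all genes did so, and for 0 they lay above, where 9.78% of all genes did so.

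Because the members are bright on the arrays, and bright genes were called more often, they were also set beside genes of like signal. Among the 6442 genes with a mean log2 signal of at least 8, 27.5% were lower and 16.7% higher, and their median difference was -0.09. Of the 78 respiratory chain genes above the same level, 27 (34.6%) were lower and 0 higher, with a median of -0.16. At a mean of at least 10, 28.3% of 2049 genes were lower and 17.9% higher, against 21 of 56 respiratory chain genes lower (37.5%) and 0 higher. The share of lower genes was closer to that of bright genes than to that of all genes. The numbers of higher genes were 0 beside shares of 16.7% and 17.9%. Mitochondrial ribosomal protein genes, whose products translate the mitochondrially encoded subunits, had 30 of 77 lower (39.0%) and 1 higher, with a median of -0.17.

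**Figure D1:**
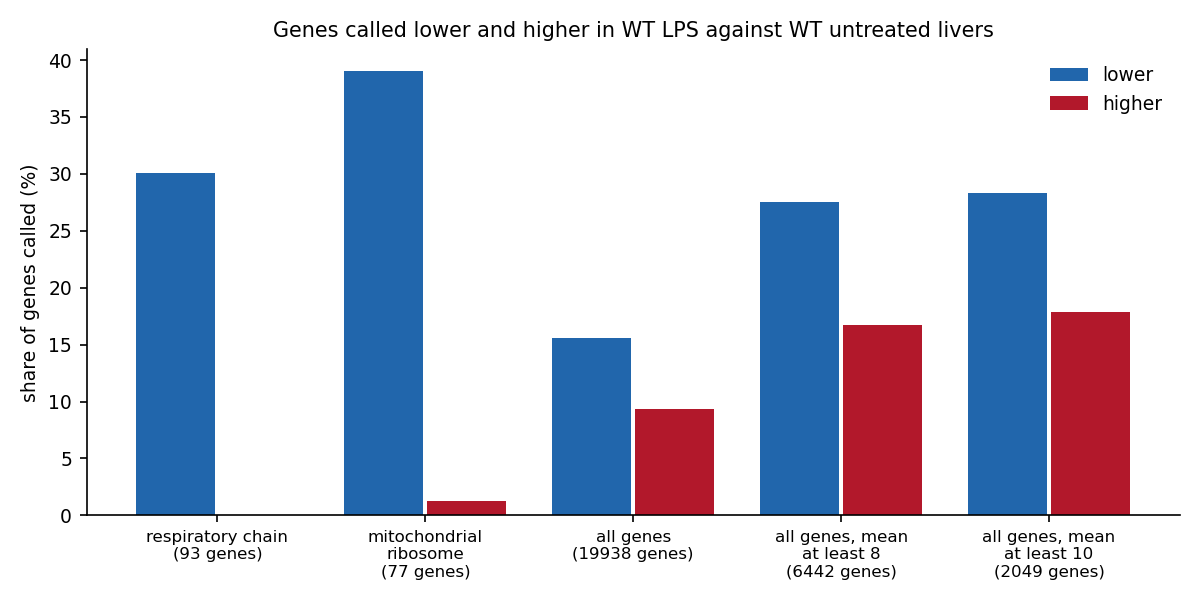
Share of genes (%) called lower (blue) and higher (red) at an adjusted p under 0.05 in WT LPS against WT untreated livers, for the respiratory chain genes, the mitochondrial ribosomal protein genes, all genes and genes above 2 signal levels. The respiratory chain genes have 30.1% lower and none higher, beside 27.5% lower and 16.7% higher for all genes with a mean of at least 8.

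The count depended on the arrays used. Without the 3 arrays with pancreas transcripts, 10 of the 93 genes were lower (10.8%) and 0 higher, beside 8.75% lower over all genes. This fit lacked WT LPS replicates 2 and 3, and the median difference of the 93 genes was -0.12. All 28 differences stayed below 0, but the 28 were chosen for falls on overlapping arrays, so their sign is no separate check. Without WT untreated replicates 2 and 4, 16 were lower (17.2%), beside 12.4% of all genes. Without WT untreated replicates 1 and 3 instead, 23 were lower (24.7%), beside 15.5% of all genes.

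**Figure D2:**
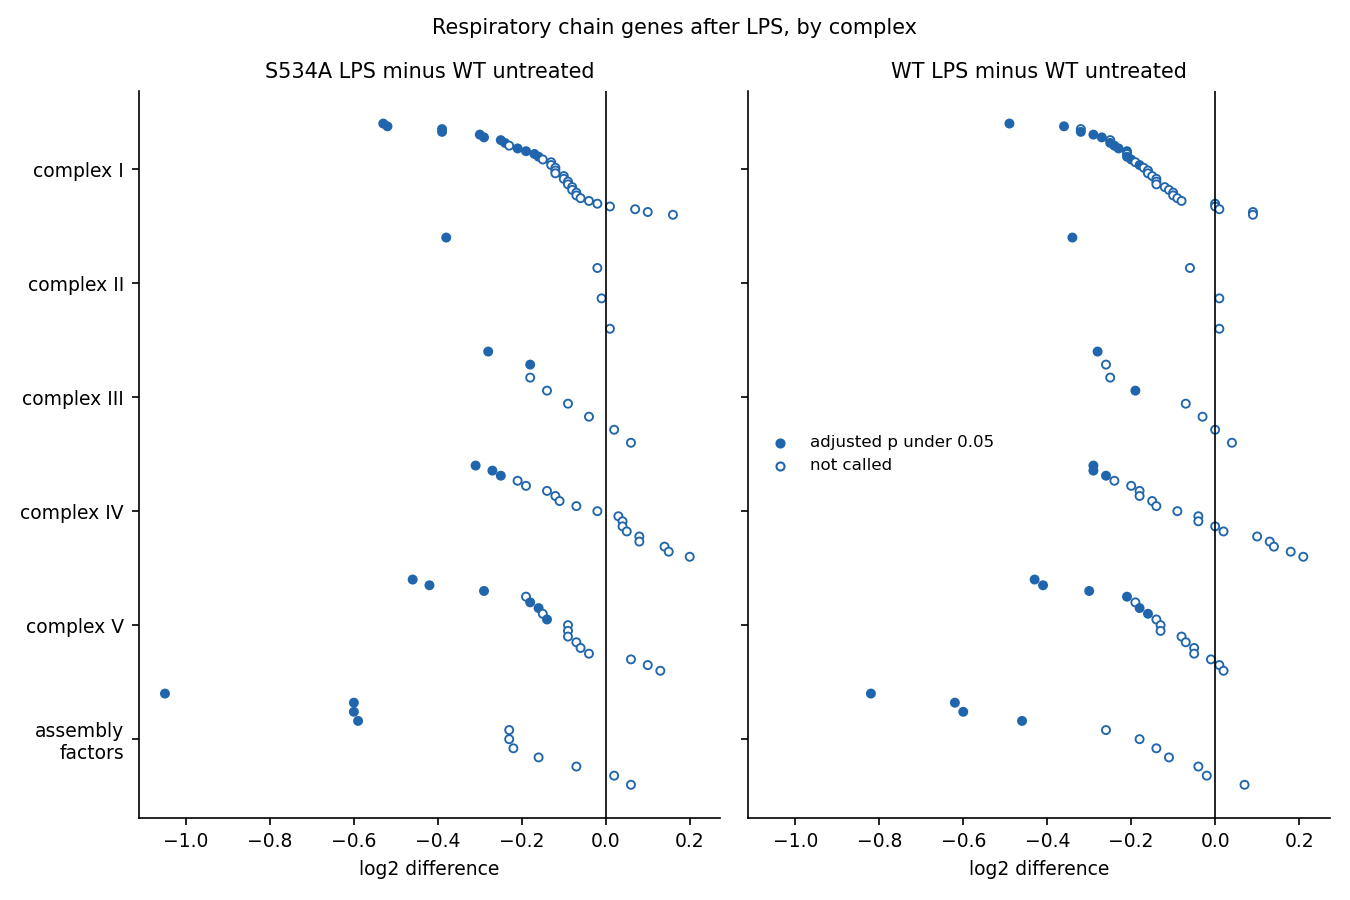
Log2 difference of each respiratory chain gene (points), by complex, in S534A LPS minus WT untreated livers (left) and WT LPS minus WT untreated livers (right), where both use the same untreated arrays. Filled points have an adjusted p under 0.05, and all of them lie below 0, with Sdhaf1 the lowest at -1.05 on the left and -0.82 on the right.

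Nuclear genes for subunits are known to be driven by factors such as NRF1 and the ETS factor GABP, which bind close to the transcription start. Promoters from RefSeq (GRCm38.p6), 250 bases before to 50 bases after the start, were found for 77 of the 93 genes and searched on both strands. The NRF1 core GCATGCG was in 12 of the 77 promoters (15.6%), beside 3.64% of 27025 promoters. The ETS core CCGGAAG was in 20 (26.0%), beside 9.12%, and the YY1 core AAGATGG in 9 (11.7%), beside 6.48%. Part of the NRF1 core reads the same on both strands, so its matches can overlap, and each promoter was counted once. Among promoters of genes that fell in WT LPS livers, the NRF1 core was in 5 of 27 (18.5%), beside 7 of 50 (14.0%) of those not called. The ETS core was in 6 of 27 (22.2%), beside 14 of 50 (28.0%), and the YY1 core in 4 of 27 (14.8%), beside 5 of 50 (10.0%). Below are the 250 bases before the start of 3 genes, on the strand of the gene from 5′ to 3′, chosen because Ndufa6 and Atp5h were among the strongest falls and Sdhb did not pass the test. Ndufa6 lies on the minus strand at chr15:82354292-82354541, with the NRF1 core in capitals from position -83 relative to the start. Atp5h lies on the minus strand at chr11:115419920-115420169, with the ETS core of the other strand in capitals from position -38. Sdhb lies on the plus strand at chr4:140961021-140961270, with the NRF1 core in capitals from position -54. A match is a description of letters and not of binding.
Ndufa6: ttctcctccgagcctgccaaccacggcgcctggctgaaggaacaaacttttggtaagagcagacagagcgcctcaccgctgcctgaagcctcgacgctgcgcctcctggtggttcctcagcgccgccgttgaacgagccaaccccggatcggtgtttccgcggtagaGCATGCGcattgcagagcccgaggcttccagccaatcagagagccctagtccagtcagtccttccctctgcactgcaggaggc
Atp5h: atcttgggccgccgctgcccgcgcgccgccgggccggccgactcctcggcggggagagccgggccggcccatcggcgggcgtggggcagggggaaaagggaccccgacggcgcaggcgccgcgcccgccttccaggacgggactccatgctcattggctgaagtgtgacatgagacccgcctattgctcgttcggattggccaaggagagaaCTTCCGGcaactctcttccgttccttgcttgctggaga
Sdhb: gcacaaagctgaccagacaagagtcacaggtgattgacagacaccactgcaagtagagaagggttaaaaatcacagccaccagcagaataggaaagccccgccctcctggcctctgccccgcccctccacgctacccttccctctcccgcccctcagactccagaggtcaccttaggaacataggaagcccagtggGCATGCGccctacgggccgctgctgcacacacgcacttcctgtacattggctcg

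Complex I, the NADH dehydrogenase, had 12 of 34 genes lower in WT LPS than in WT untreated livers (35.3%), 0 higher and a median difference of -0.16. For this and the other complexes, the shares to set beside are 15.6% lower over all genes and 27.5% over genes with a mean of at least 8. Ndufa6, an accessory subunit of the matrix arm, had log2 signals of 10.07, 10.24, 10.29 and 10.24 in S534A LPS livers, 10.26, 10.28, 10.23 and 10.25 in WT LPS livers, and 10.71, 10.82, 10.68 and 10.76 in WT untreated livers. All 8 LPS arrays lay below all untreated arrays. The WT LPS difference was -0.49 ± 0.06 (SE, n = 4 each), so the signal fell by 28.8% on the linear scale (limma adjusted p = 5.58e-05). Ndufb5, an accessory subunit of the membrane arm, measured 10.76, 10.72, 10.87 and 10.71 in S534A LPS livers, 10.89, 10.64, 10.74 and 10.88 in WT LPS livers, and 11.20, 11.15, 11.11 and 11.14 in WT untreated livers. Both LPS groups lay below the untreated arrays again, with a WT LPS difference of -0.36 ± 0.07 (SE, adjusted p = 0.00148). Ndufb8, also of the membrane arm, measured 9.65, 9.75, 9.70 and 9.66 in S534A LPS livers, 9.68, 9.54, 9.65 and 9.78 in WT LPS livers, and 10.03, 10.10, 9.81 and 9.97 in WT untreated livers. WT LPS and untreated arrays did not overlap, and the difference was -0.32 ± 0.07 (SE, adjusted p = 0.00617).

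The members of complex I can be grouped by role, in subgroups drawn up after the values were seen and given as counts with no test. Of the 9 Ndufb genes, which encode accessory subunits of the membrane arm, 6 were lower, with a median of -0.27. Over all genes 15.6% were lower, and 27.5% of those with a mean of at least 8. Without the 3 arrays with pancreas transcripts, Ndufb5 was the only Ndufb gene that kept its call. Ndufb6, Ndufb9, Ndufb10 and Ndufb11 also lost theirs when a single array was left out. Ndufb11 had a WT LPS difference of -0.20 in the probe set used and -0.03 in its dimmer one. Of the 6 core subunits measured here, nuclear-encoded proteins that are conserved in bacteria, 1 was lower, with a median of -0.16. The called core gene was Ndufv2, with a difference of -0.21 (adjusted p = 0.0147). Ndufs3 and Ndufs8 had differences of 0.00 and 0.01. Of the 19 other accessory subunits, 5 were lower, with a median of -0.14.

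Complex II, succinate dehydrogenase, had 1 of 4 genes lower. Sdhd, a membrane anchor that helps bind ubiquinone, measured 11.13, 11.13, 11.09 and 11.16 in S534A LPS livers, 11.32, 11.18, 11.06 and 11.11 in WT LPS livers, and 11.69, 11.31, 11.50 and 11.53 in WT untreated livers. The highest WT LPS array lay just above the lowest untreated array, and the difference was -0.34 ± 0.08 (SE, n = 4 each, adjusted p = 0.00735). Sdhc, the other membrane anchor, measured 10.97, 11.05, 11.01 and 11.05 in S534A LPS livers, 11.11, 11.09, 11.00 and 10.99 in WT LPS livers, and 11.09, 11.10, 10.93 and 11.01 in WT untreated livers. Its groups overlapped, and the difference was 0.01 (adjusted p = 0.88). Sdha, the flavoprotein that oxidises succinate, measured 12.30, 12.32, 12.36 and 12.35 in S534A LPS livers, 12.38, 12.23, 12.36 and 12.34 in WT LPS livers, and 12.35, 12.34, 12.30 and 12.29 in WT untreated livers. Sdhb, the iron-sulfur protein, measured 11.06, 11.10, 11.06 and 11.19 in S534A LPS livers, 11.08, 10.97, 11.11 and 11.11 in WT LPS livers, and 11.14, 11.26, 11.09 and 11.00 in WT untreated livers. The groups of both catalytic subunits overlapped, with differences of 0.01 for Sdha and -0.06 for Sdhb and adjusted p-values of 0.938 and 0.572.

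Complex III, the cytochrome bc1 complex, had 2 of 8 genes lower and a median of -0.13. Uqcr10, a small accessory subunit, measured 10.14, 10.16, 10.15 and 10.15 in S534A LPS livers, 10.03, 9.90, 10.10 and 10.03 in WT LPS livers, and 10.38, 10.28, 10.12 and 10.38 in WT untreated livers. The 4 WT LPS arrays lay below all untreated arrays, while the S534A LPS arrays lay within the untreated range. The WT LPS difference was -0.28 ± 0.07 (SE, adjusted p = 0.00917). Uqcrc1, a core protein of the matrix side, measured 11.56, 11.50, 11.55 and 11.58 in S534A LPS livers, 11.58, 11.52, 11.53 and 11.53 in WT LPS livers, and 11.76, 11.82, 11.61 and 11.72 in WT untreated livers. Its LPS arrays all lay below its untreated arrays, with a WT LPS difference of -0.19 ± 0.06 (SE, adjusted p = 0.0224). Uqcrfs1, the Rieske iron-sulfur protein, had a difference of -0.26 (adjusted p = 0.0884). Uqcrb had -0.25 (adjusted p = 0.0753), and Uqcrc2, Uqcrq, Uqcr11 and Uqcrh had differences from -0.07 to 0.04. The dimmer probe set of Uqcr11, which was not tested, had a WT LPS difference of 0.32, where the one used had 0.00.

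Complex IV, cytochrome c oxidase, had 3 of 19 genes lower (15.8%) and a median of -0.09. Over all genes 15.6% were lower, and 27.5% of those with a mean of at least 8. Of the 19, 8 are dim isoforms with means of 4.78 to 7.27, and the 3 lower genes were among the other 11. Cox5b, a subunit facing the matrix, measured 11.86, 11.89, 11.94 and 11.91 in S534A LPS livers, 11.93, 11.79, 11.88 and 11.84 in WT LPS livers, and 12.14, 12.22, 12.11 and 12.12 in WT untreated livers. Cox7b, a single-pass membrane subunit, measured 12.48, 12.53, 12.55 and 12.43 in S534A LPS livers, 12.48, 12.40, 12.55 and 12.64 in WT LPS livers, and 12.81, 12.75, 12.80 and 12.87 in WT untreated livers. For both genes all 8 LPS arrays lay below the untreated arrays, and the WT LPS differences were -0.29 ± 0.05 for Cox5b (SE, adjusted p = 0.00142) and -0.29 ± 0.06 for Cox7b (SE, adjusted p = 0.00373). The dimmer probe sets of these genes had WT LPS differences of -0.26 for Cox5b and -0.17 for Cox7b. Cox7a2, the isoform typical of liver, measured 10.98, 11.06, 11.09 and 11.02 in S534A LPS livers, 10.94, 10.88, 10.91 and 11.14 in WT LPS livers, and 11.26, 11.25, 11.10 and 11.28 in WT untreated livers. Its groups overlapped at WT LPS replicate 4 and untreated replicate 3, and the WT LPS difference was -0.26 ± 0.07 (SE, adjusted p = 0.0142).

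Several complex IV subunits come as isoforms, and the members include the forms typical of muscle, testis, lung or hypoxic cells. The 8 genes of this kind (Cox4i2, Cox6a2, Cox6b2, Cox7a1, Cox7b2, Cox8b, Cox8c and Ndufa4l2) had mean log2 signals of 4.78 to 7.27, and 0 passed the test in WT LPS against WT untreated livers, with differences of -0.15 to 0.21. The other 11 complex IV genes had mean log2 signals of 8.95 to 13.22 and a median difference of -0.18, and the 3 lower genes were among them. Among the general forms of these families, Cox7a2 and Cox7b were called lower, as given above, while Cox4i1, Cox6a1, Cox6b1, Cox8a and Ndufa4 did not pass the test.

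Subunit 4 helps regulate the enzyme, and its general form Cox4i1 measured 11.08, 11.09, 11.13 and 11.16 in S534A LPS livers, 10.96, 11.09, 11.07 and 11.06 in WT LPS livers, and 11.15, 11.26, 11.06 and 11.06 in WT untreated livers. Cox4i2, the lung and hypoxia form, measured 6.36, 6.23, 6.16 and 6.32 in S534A LPS livers, 6.11, 6.26, 6.11 and 6.42 in WT LPS livers, and 6.35, 6.21, 6.29 and 6.06 in WT untreated livers. The groups of both overlapped, with WT LPS differences of -0.09 and 0.00. Cox6a1, the liver form of subunit 6a, measured 11.09, 11.38, 11.42 and 11.46 in S534A LPS livers, 11.44, 11.23, 11.38 and 11.41 in WT LPS livers, and 11.56, 11.78, 11.55 and 11.55 in WT untreated livers. Cox6a2, the heart and muscle form, measured 7.31, 7.29, 7.16 and 7.18 in S534A LPS livers, 7.35, 7.79, 7.26 and 7.16 in WT LPS livers, and 7.33, 7.22, 7.39 and 6.79 in WT untreated livers. The LPS arrays of Cox6a1 all lay below its untreated arrays, with a WT LPS difference of -0.24 that did not pass the test (adjusted p = 0.0708), while those of Cox6a2 overlapped with the untreated ones. Cox6b1, which faces the intermembrane space, measured 11.48, 11.52, 11.50 and 11.62 in S534A LPS livers, 11.42, 11.52, 11.52 and 11.58 in WT LPS livers, and 11.50, 11.43, 11.36 and 11.21 in WT untreated livers. Cox6b2, the testis form, measured 5.65, 5.60, 5.65 and 5.84 in S534A LPS livers, 5.60, 6.13, 5.61 and 5.60 in WT LPS livers, and 5.66, 5.56, 5.77 and 5.41 in WT untreated livers. Both had overlapping groups, with WT LPS differences of 0.14 for Cox6b1 and 0.13 for Cox6b2.

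In the subunit 7 family, Cox7a1, the heart and muscle form, measured 7.50, 7.44, 7.21 and 7.17 in S534A LPS livers, 7.35, 7.15, 7.02 and 7.07 in WT LPS livers, and 7.22, 7.47, 7.26 and 7.25 in WT untreated livers. Cox7b2, the testis form, measured 4.84, 4.83, 4.81 and 4.85 in S534A LPS livers, 4.78, 4.73, 4.79 and 4.77 in WT LPS livers, and 4.77, 4.74, 4.87 and 4.61 in WT untreated livers. Neither differed beyond the test in WT LPS against WT untreated livers (-0.15 and 0.02), and the groups overlapped. Cox7a2l, a factor that joins complexes III and IV, measured 8.82, 8.92, 8.98 and 9.13 in S534A LPS livers, 8.74, 8.90, 8.83 and 8.96 in WT LPS livers, and 8.81, 9.20, 8.98 and 9.16 in WT untreated livers. Its groups overlapped, and the WT LPS difference was -0.18 in this probe set and -0.50 in its other one. Ndufa4, which was long assigned to complex I and is now known as a complex IV subunit, measured 11.04, 11.11, 11.19 and 11.17 in S534A LPS livers, 11.08, 11.05, 11.14 and 11.07 in WT LPS livers, and 11.19, 11.43, 11.19 and 11.24 in WT untreated livers. Ndufa4l2, its hypoxia-induced relative, measured 6.06, 6.11, 6.00 and 5.98 in S534A LPS livers, 5.95, 6.45, 5.94 and 6.08 in WT LPS livers, and 6.02, 6.14, 6.39 and 6.02 in WT untreated livers. The WT LPS and untreated arrays of Ndufa4 did not overlap, but its difference of -0.18 did not pass the test (adjusted p = 0.0653), and the groups of Ndufa4l2 overlapped.

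Cox8a, the general form of subunit 8, measured 12.10, 12.07, 12.05 and 12.09 in S534A LPS livers, 12.06, 12.00, 11.91 and 12.03 in WT LPS livers, and 12.02, 12.08, 12.02 and 12.05 in WT untreated livers. Cox8c, the testis form, measured 6.15, 6.12, 6.11 and 6.10 in S534A LPS livers, 5.96, 6.51, 5.94 and 6.24 in WT LPS livers, and 6.04, 5.92, 6.27 and 5.68 in WT untreated livers. Both had overlapping groups, with WT LPS differences of -0.04 for Cox8a and 0.18 for Cox8c. The dim forms Cox6a2, Cox6b2, Cox8c and Ndufa4l2 were each highest on WT LPS replicate 2, an array with pancreas transcripts, and whether these are linked was not tested. Cox8b, the form of striated muscle and brown fat, measured 6.46, 6.90, 5.86 and 6.06 in S534A LPS livers, 6.31, 6.24, 6.11 and 6.24 in WT LPS livers, and 5.99, 6.62, 6.10 and 5.78 in WT untreated livers. It was highest on S534A LPS replicate 2 and WT untreated replicate 2, which were also the arrays with the highest means of 8 striated muscle markers, 7.17 and 6.98, where the other arrays had 6.28 to 6.80.

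Complex V, the ATP synthase, had 6 of 17 genes lower (35.3%) and a median of -0.13. Atp5h, subunit d of the peripheral stalk, measured 11.43, 11.42, 11.46 and 11.37 in S534A LPS livers, 11.53, 11.30, 11.49 and 11.48 in WT LPS livers, and 11.87, 11.95, 11.86 and 11.87 in WT untreated livers. All LPS arrays lay below all untreated arrays, with a WT LPS difference of -0.43 ± 0.06 (SE, n = 4 each, adjusted p = 0.000189), and the signal fell by 25.8%. Its 3 probe sets had differences of -0.67 to -0.43. Atp5l, subunit g of the membrane part, measured 9.19, 9.13, 9.33 and 9.40 in S534A LPS livers, 9.29, 9.15, 9.34 and 9.35 in WT LPS livers, and 9.67, 9.98, 9.40 and 9.69 in WT untreated livers. WT LPS and untreated arrays did not overlap but the untreated arrays were spread widely, and the WT LPS difference was -0.41 ± 0.11 (SE, adjusted p = 0.0138), with -0.58 to -0.38 over 6 probe sets.

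The genes Atp5g1, Atp5g2 and Atp5g3 encode precursors of the same mature c subunit, which forms the rotating ring. Atp5g2 measured 12.02, 11.93, 12.03 and 12.05 in S534A LPS livers, 12.06, 12.04, 11.93 and 11.96 in WT LPS livers, and 12.30, 12.35, 12.19 and 12.36 in WT untreated livers. Its LPS arrays all lay below its untreated arrays, with a WT LPS difference of -0.30 ± 0.06 (SE, adjusted p = 0.00238). Atp5g1 measured 12.63, 12.60, 12.51 and 12.55 in S534A LPS livers, 12.64, 12.44, 12.48 and 12.47 in WT LPS livers, and 12.80, 12.70, 12.66 and 12.72 in WT untreated livers. Atp5g3 measured 12.04, 12.04, 12.01 and 12.07 in S534A LPS livers, 12.11, 12.13, 12.01 and 11.98 in WT LPS livers, and 12.17, 12.19, 12.02 and 12.03 in WT untreated livers. The LPS arrays of Atp5g1 lay below its untreated arrays (WT LPS difference -0.21, adjusted p = 0.0212), and those of Atp5g3 overlapped with them (-0.05, adjusted p = 0.62). In subgroups drawn up after the values were seen, 1 of 5 genes of the F1 head and central stalk was lower (Atp5d, -0.16, adjusted p = 0.0189), as were 2 of 4 of the peripheral stalk, 2 of 3 of the c ring and 1 of 5 of the other membrane subunits. The catalytic subunit Atp5b and its partner Atp5a1 had differences of -0.05 and -0.01, neither called.

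**Figure D3:**
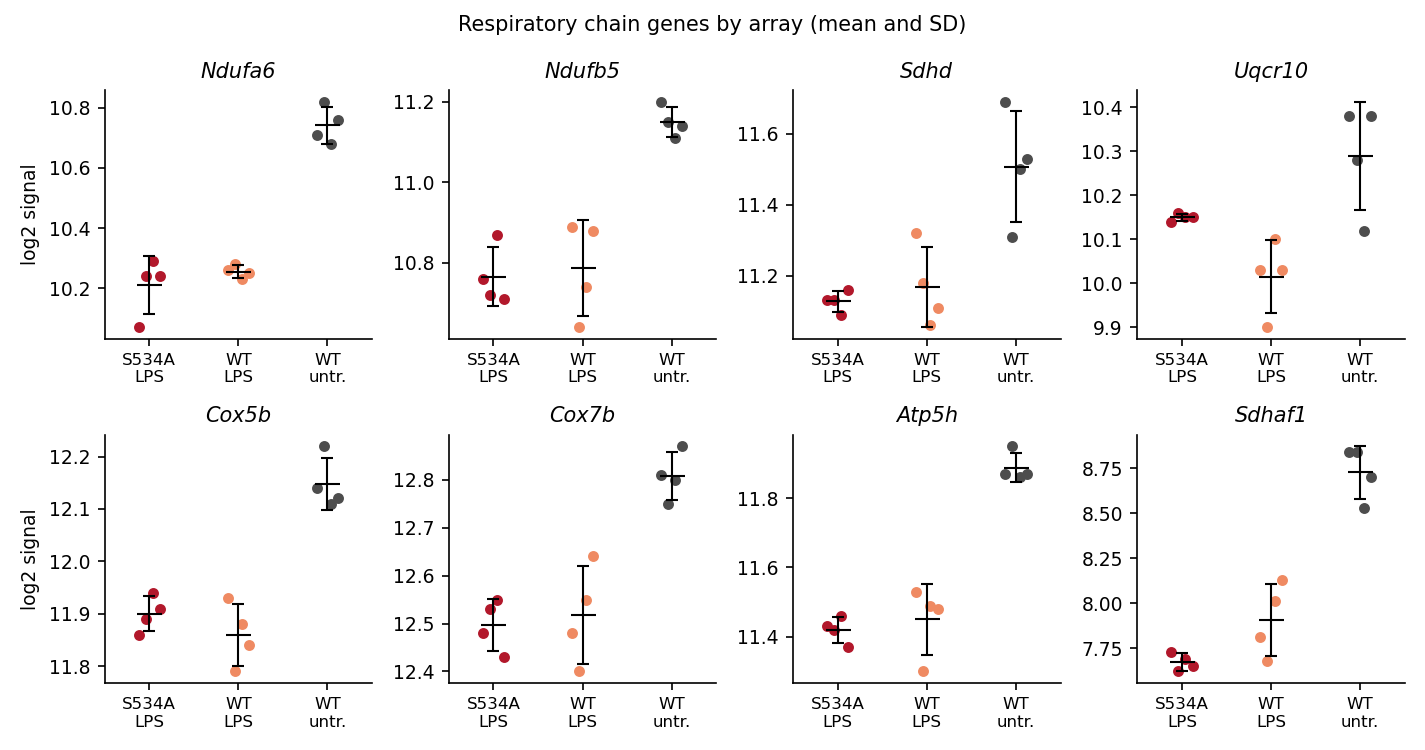
Log2 signal of 8 genes on each array (points), with the mean and SD of each group (black), for S534A LPS, WT LPS and WT untreated livers from left to right. The axes do not start at 0 and differ between genes. In Ndufa6, Ndufb5, Cox5b, Cox7b, Atp5h and Sdhaf1 all 8 LPS arrays lie below the untreated arrays, while in Uqcr10 the S534A LPS arrays lie within the untreated range.

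The 3 largest WT LPS falls were in assembly factors, which help build the complexes and are not part of them. Of the 11 with the members' prefixes, 4 were lower (36.4%) and 0 higher, with a median of -0.18. The shares of lower genes to set beside are 15.6% over all genes and 27.5% over genes with a mean of at least 8. Sdhaf1, which assists the insertion of iron-sulfur clusters into Sdhb, measured 7.73, 7.62, 7.69 and 7.65 in S534A LPS livers, 7.81, 7.68, 8.01 and 8.13 in WT LPS livers, and 8.84, 8.84, 8.53 and 8.70 in WT untreated livers. All LPS arrays lay below all untreated arrays, and the WT LPS difference was -0.82 ± 0.10 (SE, n = 4 each, adjusted p = 5.42e-05), and the signal fell by 43.3%. Of the remaining Sdhaf genes, chosen for naming after their values were seen, Sdhaf3 had -0.46 (adjusted p = 0.00324) and Sdhaf2, which helps attach the flavin to Sdha, had -0.04 (adjusted p = 0.784). Sdhaf4 had -0.62 in its brighter probe set (adjusted p = 0.000849) and 0.12 in the other, so its direction depended on the probe set. Ndufaf4, a complex I assembly factor also named after its values were seen, had -0.60 (adjusted p = 0.0208), with untreated arrays from 8.12 to 8.96. The Sdhaf1 and Sdhaf3 calls held under every alternative tried at the same threshold, while Sdhb was not called.

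Without the 3 arrays with pancreas transcripts, the WT LPS falls of Ndufa6, Ndufa3, Ndufb5, Cox5b, Cox7b, Atp5h, Atp5g2, Sdhaf1, Sdhaf3 and Sdhaf4 passed the test. The other 18 of the 28 did not, Ndufv2, Ndufb8, Sdhd, Uqcrc1, Cox7a2, Atp5d, Atp5l, Atp5g1 and Ndufaf4 among them, with adjusted p-values from 0.0664 (Uqcr10) to 0.266 (Ndufc1). Their differences stayed below 0, which follows largely from how the 28 were chosen. By complex, the lower genes were then 3 of 34 in complex I, 0 of 4 in complex II, 0 of 8 in complex III, 2 of 19 in complex IV, 2 of 17 in complex V and 3 of 11 assembly factors, and 0 were higher.

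The S534A LPS livers, set against the same untreated arrays, gave the same numbers of lower genes in each complex. Of the 93 genes, 28 were lower and 0 higher, where 16.0% of all genes were lower and 11.0% higher, and the median was -0.12. Of the 78 with a mean of at least 8, 26 were lower (33.3%), where 28.0% of all such genes were lower and 19.4% higher. Because both LPS groups are compared with the same 4 untreated arrays, their calls are not independent. The groups shared 23 lower genes, 82.1% of each list of 28. The 5 called in S534A LPS livers alone were Atp5c1, Cox6a1, Ndufb3, Ndufs7 and Uqcrb, with differences of -0.52 for Ndufb3 (adjusted p = 0.00814) and -0.28 to -0.16 for the others. The 5 called in WT LPS livers alone were Atp5g1, Cox7a2, Ndufa3, Ndufc1 and Uqcr10. None of these 10 genes was called between S534A LPS and WT LPS livers. Sdhaf1 had the largest S534A LPS difference, -1.05 ± 0.10 (SE, adjusted p = 4.6e-06). For 36 of the 93 genes the S534A LPS arrays all lay below the untreated arrays, where 17.5% of all genes did so, and for 0 they lay above, where 13.8% did so. Without WT untreated replicates 2 and 4 the counts were 14 lower (15.1%), beside 13.0% of all genes, and 1 higher. Without WT untreated replicates 1 and 3 they were 21 lower (22.6%), beside 15.9% of all genes, and 0 higher. Without the 3 arrays with pancreas transcripts they were 22 lower (23.7%), beside 14.6% of all genes, and 0 higher. By complex, the lower genes were then 9 in complex I, 1 in complex II, 1 in complex III, 2 in complex IV, 5 in complex V and 4 assembly factors.

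**Figure D4:**
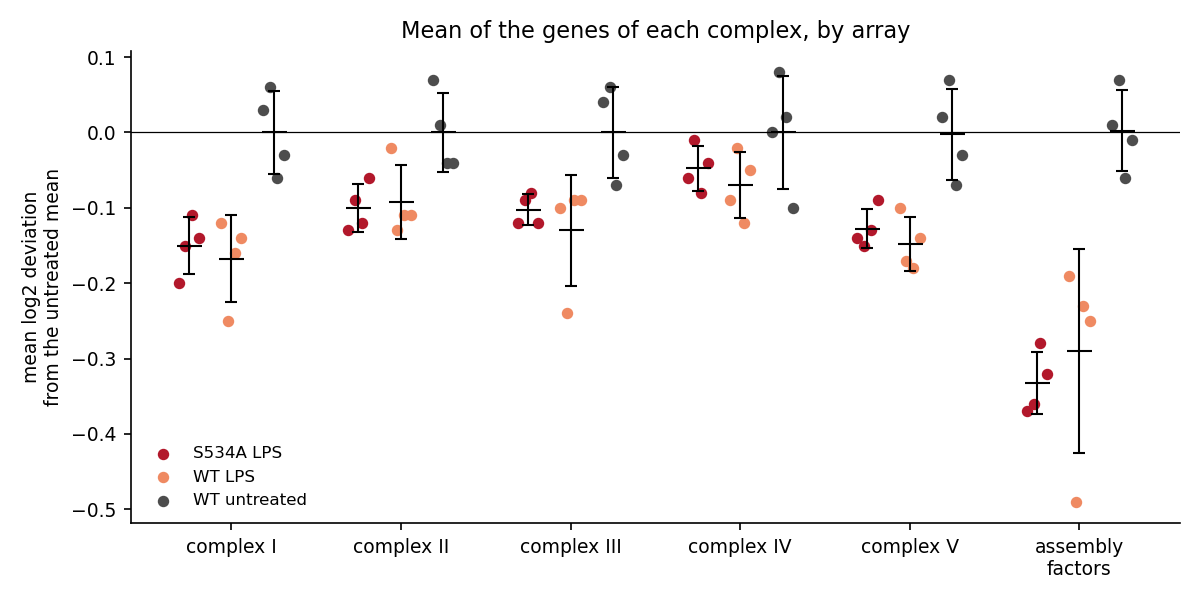
Mean deviation (log2) of the genes of each complex from the WT untreated mean on each array (points), with the group mean and SD (black), for S534A LPS, WT LPS and WT untreated livers from left to right. Assembly factors have the lowest means in both LPS groups, and in complexes II and IV LPS and untreated arrays overlap.

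Averaged over the 93 genes, the deviation from the untreated mean was -0.17, -0.14, -0.12 and -0.13 on S534A LPS arrays, -0.11, -0.21, -0.16 and -0.13 on WT LPS arrays, and 0.02, 0.06, -0.04 and -0.04 on WT untreated arrays. No LPS array reached the untreated range. The lowest, WT LPS replicate 2, was among the arrays with pancreas transcripts, and it was the lowest WT LPS array for complexes I, II and III and for the assembly factors.

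Between the genotypes after LPS, no respiratory chain gene passed the test. By limma, 0 of 93 were lower and 0 higher in S534A LPS against WT LPS livers, where 0.00502% of all genes were lower and 0.166% higher. At an unadjusted p under 0.05, 1 was lower and 2 were higher, where 308 of all 19938 genes were lower and 840 higher. The median difference was 0.01, and the differences ran from -0.23 to 0.18. The 95% intervals had a median half-width of 0.15 and a widest of 0.45. Without the 3 arrays with pancreas transcripts, 0 genes were lower and 0 higher. For 6 genes all S534A LPS arrays lay above all WT LPS arrays, where 3.25% of all genes did so, and for 0 they lay below, where 1.18% did so.

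The smallest p-values were those of Ndufa7 and Sdhaf1. Ndufa7, an accessory subunit of complex I, measured 9.25, 9.24, 9.29 and 9.39 in S534A LPS livers, 9.19, 9.06, 9.13 and 9.12 in WT LPS livers, and 9.34, 9.30, 9.19 and 9.30 in WT untreated livers. S534A LPS arrays lay above WT LPS arrays without overlap and overlapped the untreated arrays, and the genotype difference was 0.17 with a 95% interval of 0.04 to 0.29 (adjusted p = 0.51). Ndufa3, also of complex I, measured 10.66, 10.66, 10.65 and 10.70 in S534A LPS livers, 10.58, 10.57, 10.55 and 10.46 in WT LPS livers, and 10.70, 10.83, 10.89 and 10.76 in WT untreated livers. Atp5e, the epsilon subunit of complex V, measured 9.56, 9.47, 9.49 and 9.60 in S534A LPS livers, 9.43, 9.41, 9.32 and 9.45 in WT LPS livers, and 9.45, 9.53, 9.37 and 9.55 in WT untreated livers. Both had S534A LPS arrays above all WT LPS arrays, with genotype differences of 0.12 for Ndufa3 (adjusted p = 0.852) and 0.13 for Atp5e.

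In the other direction, Sdhaf1 was the lowest, with a difference of -0.23, an interval of -0.45 to -0.02 (adjusted p = 0.77) and groups that overlapped. Ndufb3, an accessory subunit of the membrane arm of complex I, measured 7.46, 7.80, 7.87 and 7.81 in S534A LPS livers, 7.99, 7.90, 7.84 and 7.99 in WT LPS livers, and 8.35, 8.37, 7.84 and 8.45 in WT untreated livers. Ndufb6, of the same arm, measured 11.38, 11.50, 11.62 and 11.50 in S534A LPS livers, 11.73, 11.43, 11.64 and 11.70 in WT LPS livers, and 11.91, 11.94, 11.88 and 11.83 in WT untreated livers. The genotypes overlapped in both genes, with differences of -0.20 for Ndufb3 and -0.13 for Ndufb6, and in Ndufb6 all LPS arrays lay below the untreated arrays. With array weights, 1 of the 93 genes was called lower, where 132 of 19938 genes (0.662%) were lower and 344 higher.

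**Figure D5:**
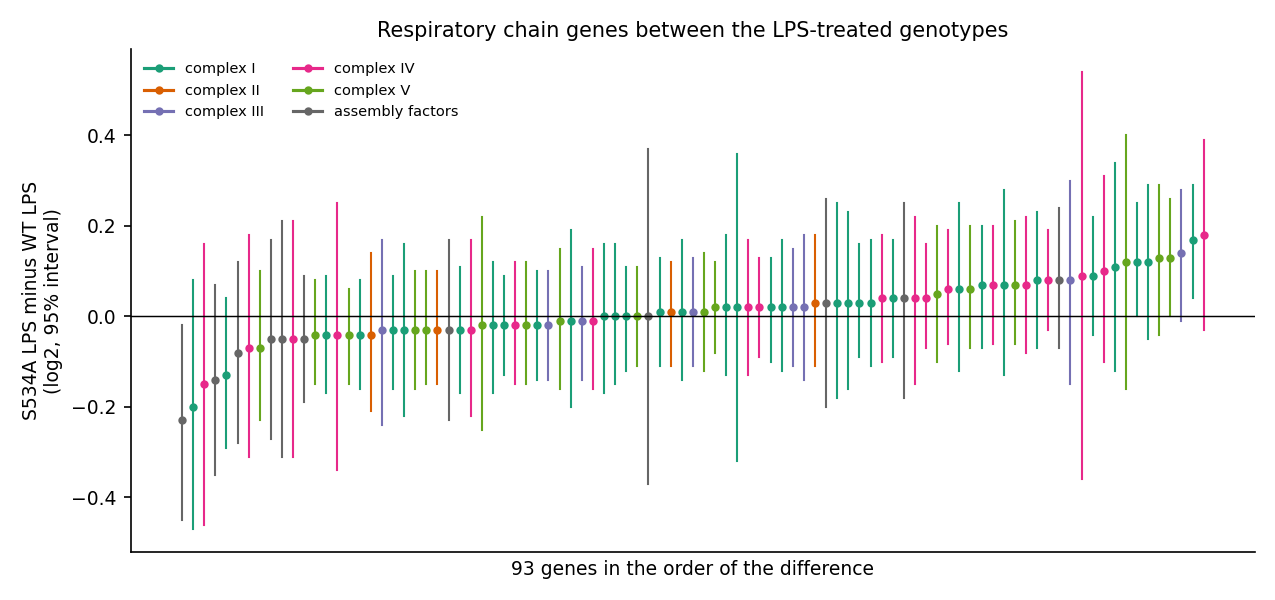
Difference of each of the 93 genes between S534A LPS and WT LPS livers (log2, points) with its 95% interval (lines), in the order of the difference and coloured by complex. The intervals of all but 3 genes cross 0, and the points run from -0.23 (Sdhaf1) to 0.18.

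Of 6 further genes tied to the chain that lie outside the prefixes and have a probe set of their own, 3 were lower in WT LPS against WT untreated livers and 0 higher. The shares over all genes were 15.6% and 9.34%, and over genes with a mean of at least 10, 28.3% and 17.9%. Cyc1, cytochrome c1 of complex III, had a difference of -0.23 (adjusted p = 0.035), Atpif1, the ATP synthase inhibitor, -0.30 (adjusted p = 0.016), and Micos10, of the cristae organising system, -0.33 (adjusted p = 0.0296). The mitochondrially encoded COX2 had log2 means of 13.33 ± 0.04 in S534A LPS, 13.32 ± 0.05 in WT LPS and 13.35 ± 0.03 in WT untreated livers (SD, n = 4 each), and ND3 had 12.45 ± 0.08 in S534A LPS, 12.49 ± 0.06 in WT LPS and 12.65 ± 0.04 in WT untreated livers. Neither passed the test in WT LPS against WT untreated livers, with differences of -0.04 for COX2 (adjusted p = 0.659) and -0.16 for ND3 (adjusted p = 0.0609), and ND3 was lower in S534A LPS against WT untreated livers (-0.20, adjusted p = 0.0229). The other 11 genes of the list, mitochondrially encoded ones among them, have no probe set of their own in the annotation used here.

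Of 34 assembly factors outside the prefixes, 10 were lower (29.4%) and 3 higher (8.82%) in WT LPS against WT untreated livers. The shares beside these are 15.6% lower and 9.34% higher of all genes, and 27.5% and 16.7% of genes with a mean of at least 8. The median signal of the 34 was 8.79, and their share of lower genes was near that of genes of like signal. Tmem126b of complex I assembly had -0.66 (adjusted p = 0.00953), Atpaf2 of complex V assembly -0.52 (adjusted p = 0.00797), Ecsit -0.45 (adjusted p = 0.000577) and Cox20 -0.45 (adjusted p = 0.000448). The genes that rose were Cox15, which makes heme A for complex IV, at 0.39 (adjusted p = 0.000794), Cox18, at 0.39 (adjusted p = 0.00719), and Foxred1, at 0.40 (adjusted p = 0.00413).

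Among 14 genes of mitochondrial transcription and biogenesis, 5 were lower and 1 higher in WT LPS livers, beside 15.6% and 9.34% of all genes. The coactivator Ppargc1a had log2 means of 7.63 ± 0.09 in S534A LPS, 7.68 ± 0.57 in WT LPS and 8.68 ± 0.14 in WT untreated livers (SD, n = 4 each), a WT LPS difference of -1.0 ± 0.21 (SE, adjusted p = 0.00347). Its relative Ppargc1b had -1.03 ± 0.15 (SE, adjusted p = 0.000205), and the nuclear receptors Esrra and Ppara had -0.45 (adjusted p = 0.000992) and -0.58 (adjusted p = 0.0391). The mitochondrial DNA helicase Twnk had -0.32 (adjusted p = 0.0348). Pprc1, of the same coactivator family, rose by 0.89 (adjusted p = 0.0104). Nrf1, Gabpa and Yy1, whose cores were searched in the promoters, had differences of 0.20, -0.16 and -0.24 and did not pass the test, nor did Tfam (-0.61, adjusted p = 0.109). None of the 14 was called between S534A LPS and WT LPS livers. In WT LPS against WT untreated livers, the falls of Ppargc1a and Ppargc1b were larger than that of any of the 93 members.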

How the data were processed

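RNA of 12 livers was measured on Affymetrix GeneChip arrays, 1 array per liver. The deposited values are log2 signals that the authors made with RMA, per the submitters' processing notes. No RMA version is stated in the sources used here. They were used as deposited. Of 35556 probe sets, 21789 had 1 gene symbol, 1621 several and 12146 none in the platform annotation, giving 19938 genes, each represented by its brightest probe set. All 93 members matched a RefSeq gene by Entrez identifier. Groups were taken from the labels.

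A model of 3 group means was fitted to all 12 arrays with limma 3.58.1 in R 4.3.3 (9 residual and 3.54 prior degrees of freedom), with Benjamini-Hochberg adjustment over all genes at 0.05, and was tested on simulated data. On the simulated data, most log2 changes of 0.25 were missed in each comparison, while nearly all changes of 2 were found. The number of arrays limits the precision. Genes were named by rule: in WT LPS against WT untreated, up to 3 called genes a direction for each complex and all of complex II; between genotypes, the 3 smallest p-values a direction; and the isoform families. Others named are members of the listed gene sets, or are said to be chosen after their values were seen. The members and lists were chosen with earlier results of these data known. Alternatives left out arrays, dim genes or pancreas-bearing arrays, averaged probe sets, or changed the normalization, weights, variance model, block and threshold.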

Additional observations from a re-analysis of the deposited data

Results flagged for a closer look

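In 9 of 141 groups of 4 values, 1 array stood far from the other 3 by Dixon's criterion, and chance gives about 1 in 20. WT untreated replicate 2 was high in 3 genes: Atp5h at 11.95, with the other arrays at 11.86 to 11.87, Cox6a1 at 11.78, with the others at 11.55 to 11.56, and Cox7a1 at 7.47, with the others at 7.22 to 7.26. WT untreated replicate 3 was low in Cox7a2 at 11.10, with the others at 11.25 to 11.28, and in Ndufb3 at 7.84, with the others at 8.35 to 8.45. Ndufb3 was also low on S534A LPS replicate 1 at 7.46, with the others at 7.80 to 7.87. On WT LPS arrays, Cox6b2 was high on replicate 2 at 6.13, with the others at 5.60 to 5.61, and Uqcrc1 was high on replicate 1 at 11.58, with the others at 11.52 to 11.53. The mean deviation of the complex III genes was -0.24 on WT LPS replicate 2, with the other WT LPS arrays at -0.10 to -0.09.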

How the results depend on the processing

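In WT LPS against WT untreated livers, 28 genes were lower. With only the groups compared in the fit 16 were, where 11.7% of all genes were lower beside 15.6% in the main fit. Without the 3 arrays with pancreas transcripts 10 were, where 8.75% of all genes were lower. At an adjusted p under 0.01 there were 13. Without WT untreated replicates 2 and 4 there were 16, and without WT untreated replicates 1 and 3 there were 23. Leaving out 1 array at a time gave 22 to 31 lower, 0 higher and medians of -0.17 to -0.12. Of the 28 genes, 18 were called whichever array was left out. In S534A LPS against WT LPS livers, array weights gave 1 lower gene, where 0.662% of all genes were then lower. The median was -0.01 without WT LPS replicate 2 and -0.02 without the pancreas-bearing arrays. Leaving out 1 array gave 0 lower, 0 higher and medians of -0.01 to 0.03. In S534A LPS against WT untreated livers, 28 genes were lower, with 15 at an adjusted p under 0.01. There were 14 without WT untreated replicates 2 and 4, and 21 without WT untreated replicates 1 and 3. In that comparison 1 was higher without WT untreated replicate 2 and 1 without WT untreated replicates 2 and 4, and the median was -0.10 with quantile normalization repeated and -0.15 with arrays centred on their median. Leaving out 1 array gave 19 to 31 lower, 0 to 1 higher and medians of -0.13 to -0.10. Leaving out the pancreas-bearing arrays, or pairs of untreated replicates, was chosen after seeing the data. The causes were not tested, beyond the fewer arrays some of these fits use.

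With the replicate number as a block, 22 genes were lower in WT LPS and 19 in S534A LPS against WT untreated livers, and 0 were lower or higher between the genotypes. Of all genes, 14.3% were then lower in WT LPS and 14.6% in S534A LPS against WT untreated livers. Same-numbered arrays did not deviate together (correlations of -0.27 to 0.21, where arrays of other numbers had -0.56 to 0.42). With 4 arrays a group this cannot exclude that the numbers pair the samples, and the main fit used no pairing. Of the named genes called in WT LPS against WT untreated livers, 10 of 19 kept the call in every alternative at the same threshold, as did 11 of 17 in S534A LPS against WT untreated livers. No direction reversed, but these fits share most of their arrays. Time after LPS, run batch and separate animals are not given, and 4 arrays a group limit the precision.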

Other observations

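The tricarboxylic acid cycle, which feeds NADH and succinate to the chain, had 6 of 13 genes lower and 1 higher in WT LPS against WT untreated livers. Over all genes 15.6% were lower and 9.34% higher, and over genes with a mean of at least 10, 28.3% and 17.9%. In S534A LPS against WT untreated livers, 4 of the 13 were lower and 1 higher. Cs, citrate synthase, had log2 means of 10.51 ± 0.03 in S534A LPS, 10.47 ± 0.11 in WT LPS and 10.90 ± 0.07 in WT untreated livers (SD, n = 4 each), a WT LPS difference of -0.42 (adjusted p = 0.000391). Idh3a, the catalytic subunit of NAD-dependent isocitrate dehydrogenase, had -0.55 (adjusted p = 0.00551). Fh1, fumarate hydratase, rose by 0.35 (adjusted p = 0.00154). The genes that follow are not of the cycle but of a separate list of 9 that compete for or bypass the chain. In WT LPS against WT untreated livers, 3 of the 9 were lower and 1 higher, beside 15.6% and 9.34% of all genes. Acod1, which makes itaconate, an inhibitor of succinate dehydrogenase, had log2 means of 10.66 ± 0.11 in S534A LPS, 10.18 ± 0.13 in WT LPS and 6.03 ± 0.21 in WT untreated livers (SD, n = 4 each), a WT LPS difference of 4.15 (adjusted p = 1.78e-11). Its S534A LPS arrays all lay above its WT LPS arrays, with a difference of 0.48 (adjusted p = 0.114). Pdk1, a kinase that inhibits pyruvate dehydrogenase, had -0.88 (adjusted p = 0.00621). Slc25a4, an exchanger of ADP and ATP, had -0.55 (adjusted p = 0.00407), and Aox1 had -0.47 (adjusted p = 0.00203).

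The annotation gives 6 probe sets 2 symbols each, pairing Cox7c, Ndufb4 or Ndufs5 with a near-identical gene or pseudogene, and they were not counted among the members. Their WT LPS means were 0.12 to 0.25 below the WT untreated means on the log2 scale.

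Among other cell type markers in WT LPS against WT untreated livers, 1 of 11 Kupffer cell and macrophage genes rose and 4 fell, 1 of 7 sinusoidal endothelial genes rose and 4 fell, and 4 of 7 stellate cell genes fell. The shares over all genes were 9.34% for rises and 15.6% for falls. None of 8 striated muscle and 5 adipocyte genes was called by limma, and none had an unadjusted p under 0.05. Of 7 hepatocyte genes, 1 fell and 1 rose.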
